A study of Rattus norvegicus with 24 samples.

Results

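The genes described here were set apart in contused rats that did not exercise, and they were chosen by their measured values. A gene was taken when its 6 CONT SCI samples all lay above, or all lay below, the 4 No SCI samples and the 10 samples of exercised contused rats. Values were compared as log2(CPM + 0.5), where CPM is a gene's count per 1000000 counts of its sample. The mean of CONT SCI also had to differ by at least 0.3 from the mean of each of the 3 other groups, and the gene needed a mean CPM of at least 1 over all 24 samples. Of the 24613 genes in the matrix, 13482 reached that mean CPM, and 100 of them met the rule. In 76 of these genes CONT SCI was higher (0.564% of the 13482) and in 24 it was lower (0.178%). Both shares were fixed by the rule and are given as a description, with no test.

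Dorsal root ganglia (DRG) hold the cell bodies of the sensory neurons of the body, each surrounded by satellite glia, together with Schwann cells, vessels and immune cells. A sensory neuron sends one branch to skin, muscle or viscera and another into the spinal cord. An injury of the cord above these ganglia spares most of their cell bodies and removes part or all of the descending input to the circuits they feed.

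RNA of whole DRG was sequenced from 24 adult female Sprague Dawley rats, 1 rat per sample, with the ganglia of both sides from vertebral levels T11 to L4 pooled within a rat. The groups were naïve rats (No SCI, n = 4), rats with an impact of 25 g-cm on the cord at T2 (CONT SCI, n = 6), the same contusion followed by swimming (CONT SCI + SWIM, n = 5) or by shallow water walking (CONT SCI + SWW, n = 5), and rats whose cord was cut completely at T2 (TX SCI, n = 4). The exercised rats trained for 10 weeks, on 5 days of each, and had their first session at 2.5 weeks after injury. Every group, the naïve rats included, lived in tiny cages that restricted movement. Cages were shared by rats of the same group, and the sample labels do not name cage mates. The fits therefore treated every rat as independent. Tissue was taken at 11.5 weeks in No SCI and CONT SCI, at 13.5 weeks in both exercised groups and at 8.5 weeks in TX SCI, so exercise and time of collection cannot be told apart, nor can transection and time.

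The counts of a sample summed to 29191327 to 33841979 in No SCI, 30462475 to 38370849 in CONT SCI, 16086670 to 29709101 in CONT SCI + SWIM, 20063150 to 29995120 in CONT SCI + SWW and 20040086 to 38730307 in TX SCI. CONT SCI thus had deeper libraries than either exercised group, with no overlap. All 100 genes had at least 10 counts in each of the 24 samples, the lowest count being 16 among the 76 and 12 among the 24, and all 100 passed the filter on low counts of the tests. The rows carry Ensembl identifiers, and none of these matched the annotation table used. The functions of the 100 genes and the markers of DRG cell types were therefore not examined. In whole ganglia, fewer cells of a type and less RNA per cell cannot be told apart.

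Across the 76 genes the mean of CONT SCI exceeded that of No SCI by a median of 0.52 on the log2 scale (a ratio of 1.43), that of CONT SCI + SWIM by 0.50 (1.41) and that of CONT SCI + SWW by 0.75 (1.68). Across the 24 genes CONT SCI differed by a median of -0.50 from No SCI, -0.53 from CONT SCI + SWIM and -0.71 from CONT SCI + SWW. The medians of the same differences over the 13482 genes were -0.03, -0.04 and -0.06. These differences chose the genes and were not tested. The smallest of a gene's 3 differences reached 0.5 in 22 of the 76 genes and 9 of the 24, and reached 1 in 1 gene. The mean CPM ran from 1.40 to 292 in the 76 genes (median 18.1) and from 1.16 to 31.7 in the 24 (median 10.8). Together the 76 genes took 0.296% to 0.340% of all counts in the CONT SCI samples, against 0.219% to 0.237% in No SCI, 0.215% to 0.238% in CONT SCI + SWIM, 0.168% to 0.193% in CONT SCI + SWW and 0.210% to 0.229% in TX SCI.

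The edge of the list was dense. Without the demand on the size of the difference, 160 genes were separated on the high side and 136 on the low side. The high gene just inside the limit of 0.3 had a smallest difference of 0.3015 and the one just outside had 0.2976, and on the low side these values were 0.3066 and 0.297. With library sizes scaled by TMM in place of the plain totals, the rule gave 148 higher and 13 lower genes. The higher share thus moved from 76.0% to 91.9%. All of the 76 were among the 148, and the 13 were all among the 24. The TMM factors were 0.9583 to 0.9964 in CONT SCI, 0.9717 to 1.0215 in No SCI and 1.0012 to 1.0225 in the exercised groups. The length of the list also changed with single samples. Without CONT SCI + SWIM replicate 3 the rule gave 183 higher and 78 lower genes, without CONT SCI replicate 1 it gave 131 higher genes, and the lower genes numbered 46 without CONT SCI replicate 4 and 49 without CONT SCI replicate 6. After all libraries were thinned to the total of the smallest, a step chosen after seeing the data, it gave 58 higher genes, 47 of them among the 76, and 17 lower genes, 12 of them among the 24.

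**Figure D1:**
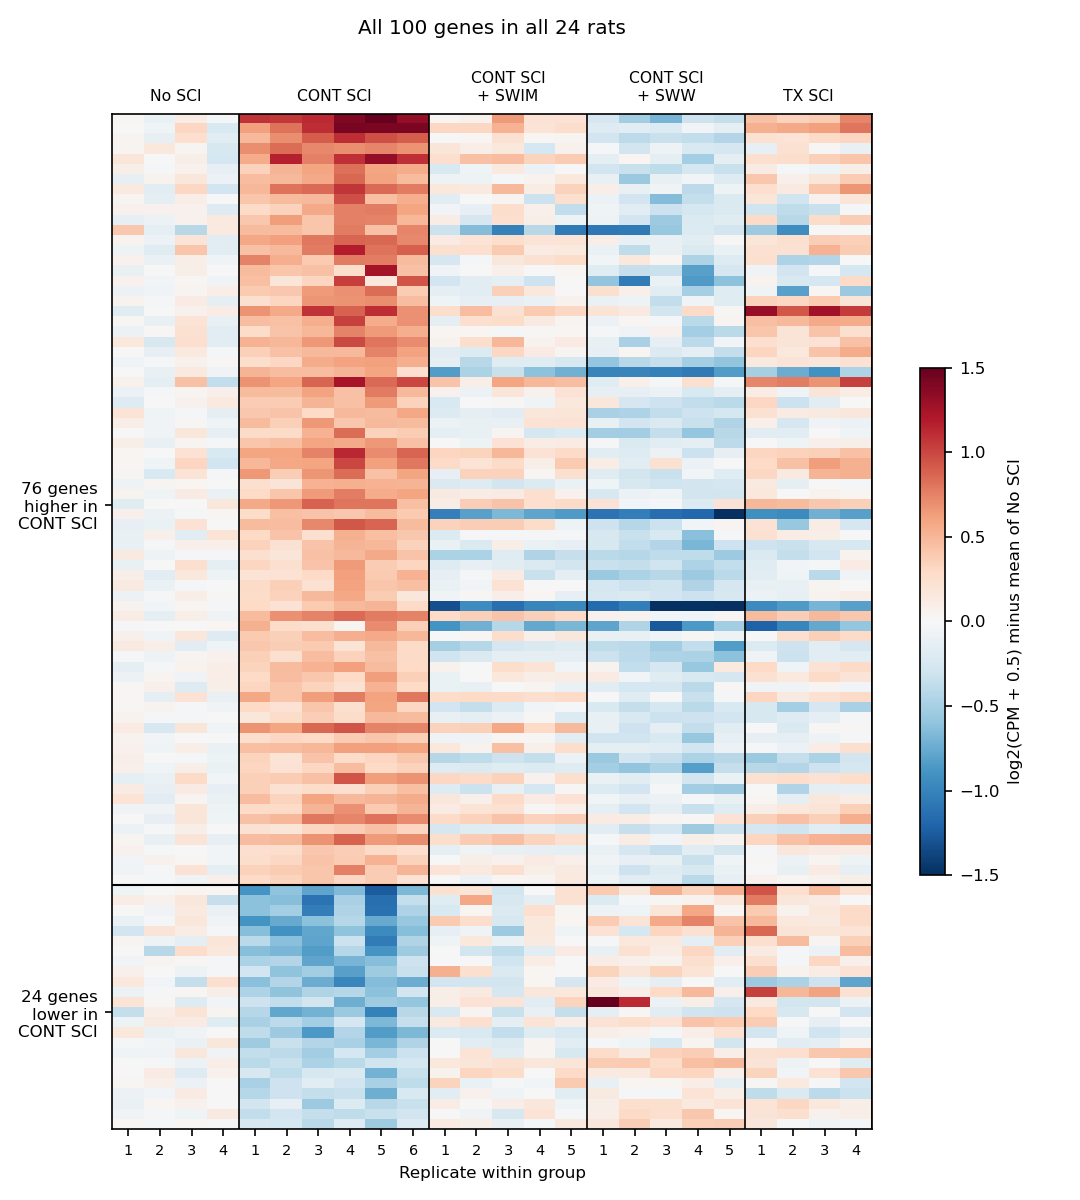
Difference of log2(CPM + 0.5) from the mean of No SCI for the 76 higher genes (above the line) and the 24 lower genes (below it) in each of 24 rats, 1 column per rat, with genes ordered by their smallest difference and colours ending at 1.5 on either side. The 6 CONT SCI columns stand apart by the rule, and the medians of CONT SCI + SWW over the 76 genes lie between -0.33 and -0.13.

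The values behind the label were checked against the naïve rats. For each sample, the median over the 76 genes of its difference from the No SCI mean was 0.39 to 0.66 in CONT SCI, with replicate 4 the highest. In CONT SCI + SWIM the sample medians were -0.06 to 0.15, close to the -0.05 to 0.09 of the No SCI samples themselves, and in CONT SCI + SWW they were -0.33 to -0.13. The mean of CONT SCI + SWIM was above that of No SCI in 44 of the 76 genes, and the mean of CONT SCI + SWW in 7. For the 24 genes the sample medians were -0.68 to -0.37 in CONT SCI, -0.22 to 0.08 in CONT SCI + SWIM and 0.09 to 0.23 in CONT SCI + SWW. The mean of CONT SCI + SWW was above that of No SCI in 20 of the 24 genes and that of CONT SCI + SWIM in 13. The samples behind these positions are those that chose the genes, so the positions are a description and support nothing further. The CONT SCI + SWW mean was under the No SCI mean in 69 of the 76 genes. The rule does not compare exercised rats with No SCI. The genes are therefore called here by the rule and not as changes that are absent after exercise. No rat was sampled before and after training, so the values compare groups of rats and do not follow a change within them.

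CONT SCI + SWIM replicate 3 was the sample nearest to CONT SCI in 33 of the 76 genes and in 9 of the 24, more often than any other of the 14 samples set against CONT SCI. Among the 76 it was followed by No SCI replicate 3 in 14 genes and No SCI replicate 1 in 11. On the side of CONT SCI, replicates 1 and 2 lay nearest to the other groups in 31 and 25 of the 76 genes, and replicates 4 and 5 lay farthest in 38 and 27. In the 24, replicate 5 was the farthest in 13 genes, and replicates 4 and 6 lay nearest to the other groups in 9 and 6. The spread within groups was close to that of other genes for the 76, with a median SD of log2(CPM + 0.5) in CONT SCI of 0.15 against 0.14 over the 13482 genes. For the 24 it was 0.17 in CONT SCI, where the 13482 genes had 0.14. It was 0.16 in CONT SCI + SWIM (0.12 over the 13482), 0.13 in CONT SCI + SWW (0.11), 0.17 in TX SCI (0.11) and 0.11 in No SCI (0.11). One of the 24, singled out after its values were seen, had 31.2 CPM in CONT SCI + SWW replicate 1 and 23.4 in replicate 2, against 9.87, 11.2 and 8.71 in replicates 3, 4 and 5. Its CONT SCI samples ran from 6.14 to 8.61 CPM and its No SCI samples from 9.13 to 12.2, so 2 of its 5 walking rats stood apart from the others.

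The 2 identifiers with the greatest smallest difference in each direction are given in full. ENSRNOG00000052665 had 3.48 to 5.31 CPM in CONT SCI (median 3.96, mean 4.12 ± 0.713, SD, n = 6), and 1.44, 1.28, 1.57 and 1.37 in No SCI replicates 1 to 4. Its values in replicates 1 to 5 were 1.45, 1.49, 2.49, 1.72 and 1.72 CPM in CONT SCI + SWIM and 1.10, 0.833, 0.675, 1.05 and 0.995 in CONT SCI + SWW. The 4 TX SCI samples had 2.10, 1.93, 1.99 and 2.68 CPM. All TX SCI samples lay below all CONT SCI samples and above all No SCI samples, and all swimming rats lay above all walking rats. The latter difference was 0.93 on the log2 scale (SE 0.18), given as a description because the samples of both groups were used to choose and rank the gene. TX SCI exceeded the exercised rats by 0.74 (SE 0.15) and No SCI by 0.58 (SE 0.17). As the gene was chosen for low values in those rats, these differences are a description too, with no test.

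ENSRNOG00000056150 had 19.1 to 33.7 CPM in CONT SCI (median 30.1, mean 28.1 ± 6.48, SD, n = 6), and 12.1, 11.7, 15.3 and 10.3 in No SCI. Its values were 15.3, 15.3, 17.8, 14.2 and 14.8 CPM in CONT SCI + SWIM and 10.7, 10.9, 10.5, 11.9 and 11.0 in CONT SCI + SWW. The TX SCI samples had 17.9, 18.4, 19.0 and 21.7 CPM. They lay above every No SCI sample and every exercised sample, and the highest of them passed the lowest CONT SCI sample. TX SCI exceeded No SCI by 0.61 on the log2 scale (SE 0.17) and the exercised rats by 0.55 (SE 0.12), and all swimming rats lay above all walking rats, by 0.50 (SE 0.14), again as a description.

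ENSRNOG00000008798, on the low side, had 0.314 to 0.765 CPM in CONT SCI (median 0.657, mean 0.610 ± 0.165, SD, n = 6), which was 12 to 24 counts a sample, and 1.34, 1.42, 1.48 and 1.47 CPM in No SCI. It had 1.76, 1.68, 1.09, 1.41 and 1.76 CPM in CONT SCI + SWIM, 2.02, 1.67, 2.28, 1.94 and 2.31 in CONT SCI + SWW, and 3.19, 1.79, 2.17 and 1.76 in TX SCI. Every TX SCI sample was thus above every No SCI sample, while the ranges of the exercised groups overlapped. The difference of TX SCI from No SCI was 0.59 on the log2 scale (SE 0.22) and that from the exercised rats 0.29 (SE 0.17), likewise without a test. Without TX SCI replicate 1, its highest sample, the difference from No SCI was 0.40.

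ENSRNOG00000002212 had 0.471 to 1.16 CPM in CONT SCI (median 0.874, mean 0.814 ± 0.281, SD, n = 6) and 1.80, 1.72, 1.89 and 1.16 in No SCI. It had 1.37, 2.67, 1.29, 1.41 and 1.98 CPM in CONT SCI + SWIM, 1.35, 1.60, 1.65, 1.69 and 1.88 in CONT SCI + SWW, and 3.14, 1.89, 1.81 and 1.62 in TX SCI. CONT SCI replicate 6 and No SCI replicate 4 differed by less than the rounding of these values, so the separation was narrow there. TX SCI differed from No SCI by 0.31 on the log2 scale (SE 0.26), and by 0.08 without TX SCI replicate 1, its highest sample, or 0.17 without No SCI replicate 4.

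**Figure D2:**
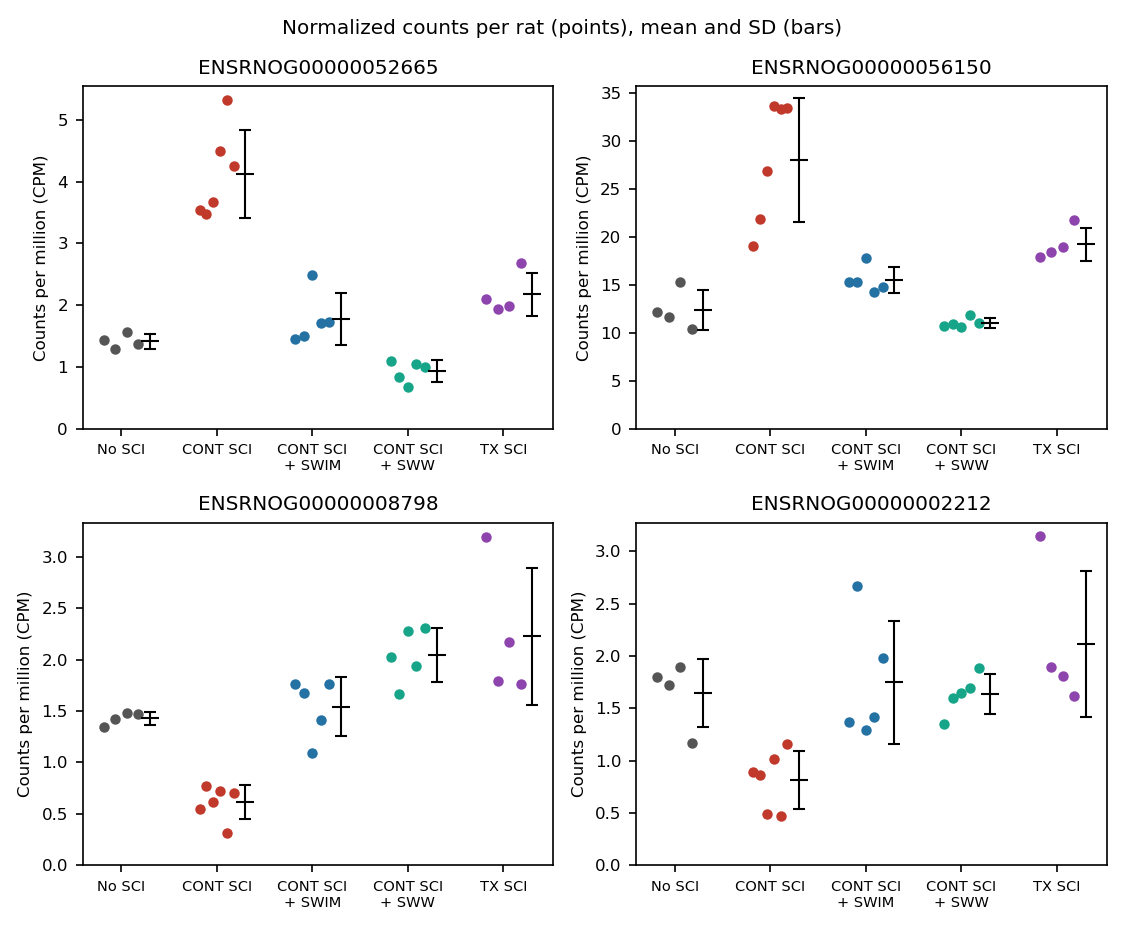
CPM of 4 genes in each rat by group (points), with the group mean (horizontal mark) and SD (bars) beside them, each axis starting at 0. The upper 2 genes were higher and the lower 2 genes lower in CONT SCI than in the other groups of the rule, and TX SCI entered their choice only through the mean CPM over all samples.

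Besides the contrasts of the rule, 4 comparisons were fitted on all genes. In those of swimming with walking and of exercised rats with No SCI, the samples of both sides had been used to choose the genes. Their counts are therefore set beside the shares over all genes as a description, and nothing is read from the gap. In the comparisons of TX SCI, the samples of the other side had been used. The first set the modes of exercise against each other. With CONT SCI + SWIM set against CONT SCI + SWW, 31 of the 76 genes (40.8%) differed at an edgeR adjusted p under 0.05, and all 31 were higher after swimming. Over all 15179 genes tested, 405 (2.67%) were higher after swimming and 49 (0.323%) lower. The log2 fold change of the 31 ran from 0.22 to 0.93 (median 0.36, SE 0.06 to 0.18, adjusted p 0.000605 to 0.04975). Of the 76 genes, 75 had a positive log2 fold change, with a median of 0.28, where the median over all tested genes was -0.01. In 35 of the 76 every swimming rat lay above every walking rat, which held in 4.64% of the 13482 genes. The rule had required all 10 of these rats to lie under CONT SCI in each of the 76 genes, and its part in these counts was not tested.

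Of the 24 genes, 2 (8.33%) were lower after swimming, with log2 fold changes of -0.34 and -0.21, and in 2 genes every swimming rat lay below every walking rat (2.97% of the 13482 genes). The log2 fold change was negative in 21 of the 24, with a median of -0.17. DESeq2 called 3 of the 24 and 160 of all genes as lower. With any exercised rat left out, edgeR called at most 1 of the 24 and at most 123 of all genes as lower.

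How many of the 76 were called between the exercise groups depended on single rats and on the model. Without CONT SCI + SWIM replicate 3 the test called 11 of the 76 and 122 of all genes as higher after swimming, and without CONT SCI + SWW replicate 4 it called 12 and 149. The values were 16 and 202 without CONT SCI + SWW replicate 3, 18 and 180 without its replicate 2, 20 and 290 without its replicate 1, and 18 and 210 without CONT SCI + SWIM replicate 2. Without CONT SCI + SWW replicate 5 they were 36 and 697. With all rats, they were 16 and 238 with the replicate block, and 37 and 651 with DESeq2. Both groups overlapped in depth, and with all libraries thinned to the smallest total the test called 27 of the 76 and 430 of all 14448 genes tested as higher.

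**Figure D3:**
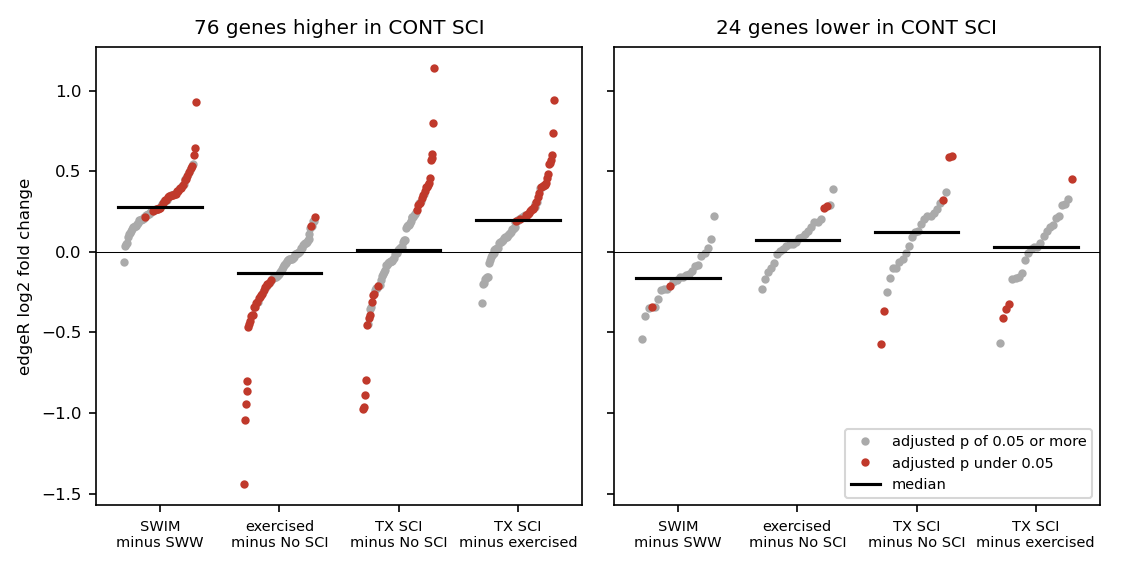
Log2 fold change (edgeR) of each of the 76 higher genes (left) and the 24 lower genes (right) in the 4 tested comparisons, each gene a point ordered by value, with red marking an adjusted p under 0.05 and the line the median. For swimming minus walking the medians were 0.28 and -0.17, and for TX SCI minus No SCI they were 0.01 and 0.12.

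The mean of both exercised groups was compared with No SCI to give their level beside that of naïve rats. Of the 76 genes, 25 (32.9%) were lower in the exercised rats, where 16.7% of the 15247 tested genes were lower, and 2 were higher, where 12.0% of all genes were higher (edgeR, adjusted p under 0.05). The log2 fold change of the 25 ran from -1.44 to -0.17 (median -0.34, SE 0.05 to 0.23), and it was at or under -0.5 in 5 genes. The median over the 76 was -0.13, against 0.02 over all tested genes. The pooled groups differed, with the CONT SCI + SWIM mean above that of No SCI in 44 of the 76 genes and the CONT SCI + SWW mean in 7. All 14 samples of this comparison had been used to choose the genes, and the part of the choice in these counts was not tested. The 49 genes that were not called had log2 fold changes from -0.31 to 0.19, and a missed threshold does not show that they were at the naïve level. Of the 24 genes, 2 were higher in the exercised rats, by 0.27 and 0.29, and the median of the 24 was 0.07. With any No SCI or exercised sample left out, 18 to 27 of the 76 were lower and at most 4 were higher.

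The rats with a complete transection entered the choice of genes only through the mean CPM over all 24 samples. A contusion spares some of the descending fibres and a transection spares none, and the comparison asked how these genes stood after the more severe injury. Of the 76 genes, 16 (21.1%) were higher in TX SCI than in No SCI and 11 (14.5%) were lower, close to the 17.5% higher and 17.3% lower of all 15126 genes tested (edgeR, adjusted p under 0.05). The 16 had log2 fold changes from 0.26 to 1.14 (median 0.41, SE 0.07 to 0.17) and the 11 from -0.97 to -0.21 (median -0.41, SE 0.06 to 0.16). The median over the 76 was 0.01, with 39 genes above 0 and 37 below. Of the 24 genes, 3 were called higher and 2 lower in TX SCI. With each rat of these groups left out in turn, 1 to 3 were called higher, the 1 without No SCI replicate 4. The 4 No SCI samples had been used to choose the genes. So had the CONT SCI samples, which were also in this fit and entered its estimate of spread. These counts are therefore a description, and nothing about the list is read from them.

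Against CONT SCI, whose samples the rule used, TX SCI is given as a description. Every TX SCI sample lay below every CONT SCI sample in 59 of the 76 genes (11.3% of the 13482 genes), and above in 20 of the 24 (16.2%). The difference of the means was -0.46 in the median gene of the 76 and 0.59 in that of the 24. In 1 of the 76 genes the TX SCI mean was higher than that of CONT SCI, and in 32 it lay between CONT SCI and the nearest of the 3 other means. It lay among the 3 other means in 37 genes and under all of them in 6. For the 24 genes, 5 TX SCI means lay between CONT SCI and the nearest other mean, 8 among the others and 11 above all of them.

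TX SCI was last compared with the mean of the exercised groups, 2 sets of rats that differ in injury, training and time of collection. Of the 76 genes, 27 (35.5%) were higher in TX SCI and the others did not pass, where 11.8% of the 15247 tested genes were higher and 9.50% lower (edgeR, adjusted p under 0.05). The 27 had log2 fold changes from 0.19 to 0.94 (median 0.36, SE 0.05 to 0.15). The median over the 76 was 0.20, against 0.03 over all tested genes. The pooled exercise groups differed in level. Over the 76 genes, the sample medians of the difference from the No SCI mean were -0.06 to 0.11 in TX SCI. They were -0.06 to 0.15 in CONT SCI + SWIM and -0.33 to -0.13 in CONT SCI + SWW. A comparison of TX SCI with each exercise group alone was not fitted. The exercised samples were among those that the rule required to be low, and the part of this in the count was not tested. Of the 24 genes, 1 was higher and 3 were lower in TX SCI, and the median was 0.03. Without TX SCI replicate 4 the test called 18 of the 76 and 987 of all genes as higher, where it called 1798 of all genes as higher with that rat. The comparisons with No SCI share those 4 rats, and the comparisons with exercised rats share those 10, so their counts are not independent of each other.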

How the data were processed

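RNA was sequenced from DRG of 24 rats. The authors aligned reads with STAR to Rn6, counted them per gene by strand with HTSeq 0.10.0 on Ensembl genes without mitochondrial genes after FastQC 0.10.1, and deposited raw counts. Counts of near-identical or overlapping genes are uncertain. Every column was matched to a sample by the group and replicate in its name.

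CPM and the rule were computed in Python 3.11.15. R 4.3.3 with edgeR 4.0.16 gave TMM scaling, filterByExpr (minimum count 10, minimum total 15), the quasi-likelihood test and Benjamini-Hochberg adjustment over all tested genes. SE was the ratio of the log2 fold change to the root of the F statistic. Fits used 14 samples for TX SCI against No SCI, with CONT SCI among them. They used 20 for the exercise groups, with No SCI and CONT SCI among them, and 24 otherwise. Scripts were tested on simulated data. DESeq2 1.42.0, other scalings, filters and samples, a replicate block, thinning and leave-one-out were alternatives. The annotation table (GRCr8, 47357 genes) matched 0 identifiers, so gene and marker lists were not applied, and the named genes are the 2 identifiers per direction with the greatest smallest difference. Members and lists were chosen with earlier results of these data known.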

Additional observations from a re-analysis of the deposited data

Results flagged for a closer look

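Each group's samples were examined for 1 value far from the rest, in 35 sets of values (library totals, the medians over the 76 and the 24 genes, and 4 single genes), and in 2 sets a sample stood apart. Chance alone gives about 1 in 20, or 1.75 of 35, for values that had no part in choosing the genes. Most of these sets hold samples that the rule used, so the count of 2 is a description. TX SCI replicate 2 had a median difference from No SCI of -0.0631 over the 76 genes, where the 3 other TX SCI samples had 0.0878 to 0.1053. CONT SCI + SWIM replicate 3 had -0.218 over the 24 genes, where the 4 other swimming rats had 0.0039 to 0.0805, and it was on the side of CONT SCI. The cause was not tested in either case.

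In edgeR's test of swimming against walking, 31 of the 76 genes and 2 of the 24 were called. Of all 15179 tested genes, 2.67% were higher after swimming and 0.323% lower. With the replicate block, 16 of the 76 were called. The samples of both groups had been used to choose the genes, so these counts are a description and no difference is read from them. With any exercised rat left out, at most 1 of the 24 was called. The counts of the 76 without single rats are given with that comparison.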

How the results depend on the processing

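Of 235 recomputed counts, of genes meeting the rule or called in a comparison, 201 stayed within 1.5 times the reported value. For swimming against walking, 9 recomputed counts of all called genes moved further and 10 did not. Of its recomputed counts of the 76 genes, 8 moved further and 11 did not. Of 374 recomputed values of single genes and small counts, 307 kept their side of the threshold or moved little. No value changed sign where it had been called. The number of genes meeting the rule was 148 higher and 13 lower with TMM library sizes, 128 and 56 with a smallest difference of 0.2, and 22 and 9 with 0.5. With a sample left out it ranged from 72 to 183 for the higher and 22 to 78 for the lower genes. A stricter threshold of 0.01 gave 3125 genes for TX SCI against No SCI (9 of the 76 higher), 1617 for TX SCI against the exercised groups (17), 105 between the exercise groups (10) and 2868 for exercised rats against No SCI. DESeq2 called 811 genes between the exercise groups.

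With each compared sample left out, the counts ranged from 4086 to 5711 genes for TX SCI against No SCI (11 to 21 of the 76 higher, 9 to 12 lower), from 1886 to 3450 for TX SCI against the exercised groups (18 to 29), from 123 to 811 between the exercise groups (11 to 36) and from 3431 to 4507 for exercised rats against No SCI (18 to 27 lower). The cause was not tested.

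Same-numbered samples of different groups correlated in their deviations from the group means with r from -0.23 to 0.34. Pairs with different numbers were not computed, so whether a replicate number marks shared handling was not tested. With the replicate block, 251 genes and 16 of the 76 were called between the exercise groups, and 4895, 2617 and 4014 genes in TX SCI against No SCI, TX SCI against the exercised groups and exercised rats against No SCI.

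Depth limits the genes near 1 CPM most, where a CONT SCI sample held as few as 12 counts. Gene names, sequences and cell type markers were not analysed here, and members share libraries and are not replicates. Training and time of collection cannot be told apart between exercised and other rats, nor can transection and time.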
